A study of Mus musculus with 8 samples.

Results

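T cells and cytotoxic lymphocytes in the aortic wall were followed here through 9 genes: Trbc2 and Lck of the antigen receptor pathway, the surface receptors Cd2, Cd6, Cd28 and Icos, and the cytotoxic genes Prf1, Nkg7 and Ctsw. All 9 were found, by Ensembl identifier, among the 1329 genes of a table of FPKM values (fragments scaled to gene length and library size). The 8 libraries were made from poly-A RNA of ascending aortas of Fbn1 mgR/mgR mice, which under-express fibrillin-1 and model Marfan syndrome. Both groups carried this genotype, so no wild-type aorta stood beside them. In 1 group of 4 libraries the mice had been given DT-061, a small-molecule activator of protein phosphatase 2A, by mouth at 5 mg/kg 2 times a day for 4 weeks from 5 weeks of age. The other 4 libraries came from mice given the vehicle, a solution of N,N-dimethylacetamide and Kolliphor HS-15 in water, on the same schedule. No label says that each library is a separate mouse, so each p-value here measures spread between libraries that may be technical.

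T cells recognise peptides through an antigen receptor whose α and β chains signal through the CD3 chains. The kinase Lck phosphorylates CD3, the adaptor and kinase cascade around Zap70 and Lat follows, and receptors such as CD28 and ICOS add a costimulatory signal when they meet their ligands on other cells. Cytotoxic T cells and natural killer (NK) cells kill through granules that release perforin and granzymes. In diseased aortas, T cells are found mainly in the adventitia as part of the inflammatory infiltrate.

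All 9 genes were lower in the DT-061 aortas on the FPKM scale. Once the libraries were quantile normalized, 4 of them (Cd6, Cd28, Icos and Prf1) were slightly higher (limma adjusted p 0.26 to 0.94). On this table that scaling shifts changes upward, by a median of 0.56. The vehicle mean was between 4.32 times (Cd28) and 15.6 times (Nkg7) the DT-061 mean FPKM, with Lck at 11.6 times and Prf1, the perforin gene, at 10.8 times. Vehicle library 1 carried much of this: without it the folds were 2.9 (Cd28) to 11.9 (Nkg7), and those of Lck, Trbc2, Cd2 and Prf1 dropped to 5.99, 3.73, 4.6 and 6.59. Without DT-061 library 2, the highest of its group for both, the folds of Lck and Trbc2 were 25.9 and 10.7. By limma on log2(FPKM + 1), all 9 fell at an adjusted p under 0.05 (0.016 to 0.047), against 65.0% of the table's genes that were called lower. The table's deposited name says that its genes were chosen as significant between these same groups, so the 9 calls are a description of that selection and nothing is read from their number. The count was 4 without DT-061 library 1 or 3 and 5 without vehicle library 3. Over the whole table, 864 genes were called lower and 404 higher, a split that became 299 and 434 when the library medians were set equal and 209 and 394 with quantile normalization; 7 of the 9 genes were called lower with the median rescaling and 0 with quantile normalization (3 at an unadjusted p under 0.05 by limma). The change on this scale ranged from -0.40 for Cd28 to -1.88 for Trbc2 with a median of -1.32, where the 894 genes of the table with a lower mean had a median of -0.87. These sizes depend on the added 1: with a pseudocount of 0.1 they ran from -1.35 for Cd28 to -3.02 for Lck, with Nkg7 at -2.93, Trbc2 at -2.54 and Prf1 at -1.69, and all 9 stayed called. For Cd2, Cd6, Prf1 and Ctsw, 4 of the 9, every DT-061 value lay under every vehicle value. This was so for 48.2% of the table's genes, and for 641 of the 894 with a lower mean. In bulk tissue, fewer T cells and less of these transcripts per cell cannot be told apart.

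The promoters show where these transcripts start and are given for the 3 genes with an entry in the RefSeq table (build GRCm38.p6), Lck, Nkg7 and Prf1, as the 250 bases before each start. Lck has 2 entries, and textbook accounts describe a distal promoter used in mature T cells and a proximal one used mostly in thymocytes. The FPKM of Lck sums over both. Capitals mark 6-letter matches on either strand to the ETS core AGGAAG or the RUNX core TGTGGT, and the 8-letter T-box core AGGTGTGA. The GATA core AGATAA was also searched and matched in none of the windows.
Lck distal, chr4:129573642-129573891, minus strand: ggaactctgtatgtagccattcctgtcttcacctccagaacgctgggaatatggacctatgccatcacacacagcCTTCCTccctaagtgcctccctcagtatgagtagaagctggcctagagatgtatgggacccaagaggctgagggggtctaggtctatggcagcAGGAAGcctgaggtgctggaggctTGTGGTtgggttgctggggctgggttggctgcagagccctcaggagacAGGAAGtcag
Lck proximal, chr4:129558373-129558622, minus strand: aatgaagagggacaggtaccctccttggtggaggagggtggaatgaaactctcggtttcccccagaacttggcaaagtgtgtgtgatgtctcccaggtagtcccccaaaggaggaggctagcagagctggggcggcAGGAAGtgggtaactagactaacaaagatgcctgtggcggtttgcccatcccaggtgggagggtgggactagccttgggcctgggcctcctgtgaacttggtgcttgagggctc
Nkg7, chr7:43436888-43437137, plus strand: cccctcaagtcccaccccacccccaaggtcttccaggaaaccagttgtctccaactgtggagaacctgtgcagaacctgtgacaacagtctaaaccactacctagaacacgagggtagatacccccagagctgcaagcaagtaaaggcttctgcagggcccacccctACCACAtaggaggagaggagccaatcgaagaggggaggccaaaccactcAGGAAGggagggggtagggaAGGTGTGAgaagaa
Prf1, chr10:61297586-61297835, plus strand: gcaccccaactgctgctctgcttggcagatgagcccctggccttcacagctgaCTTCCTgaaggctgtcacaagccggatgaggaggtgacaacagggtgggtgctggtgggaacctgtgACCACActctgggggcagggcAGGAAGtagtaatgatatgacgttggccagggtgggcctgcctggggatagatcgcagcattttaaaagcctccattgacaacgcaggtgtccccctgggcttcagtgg
An ETS core was present in all 4 windows, with 3 matches in the distal Lck window, 2 in that of Prf1 and 1 in each of the others. Of 32851 RefSeq promoter windows of the same length, 29.5% held at least 1. A RUNX core stood in the distal Lck, Nkg7 and Prf1 windows, 58, 83 and 130 bases before the start, and in 14% of all windows. The T-box core was found once, in the Nkg7 window 14 bases before the start, and in 1.12% of all windows. All distances count from the RefSeq start. The annotated Nkg7 gene begins earlier, at 43437073, so the ETS and T-box matches of its window lie inside that gene. None of these matches overlapped another, and a match of letters is not evidence of binding.

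Trbc2 had the highest mean level of the 9 genes in both groups. Trbc2, the constant region of the T cell receptor β chain (ENSMUSG00000076498, GRCm38 chromosome 6, 41546730 to 41548352), had 23.6, 6.14, 7.91 and 1.90 FPKM in vehicle libraries 1 to 4 and 0.668, 2.95, 0.397 and 1.7 in DT-061 libraries 1 to 4. Vehicle library 1 stood far above the rest, and the groups overlapped because DT-061 library 2 was above vehicle library 4. The means were 9.89 ± 9.48 and 1.43 ± 1.16 FPKM (SD, n = 4), and the log2(FPKM + 1) change was -1.88 ± 0.63 (SE; limma adjusted p = 0.024). Trbc2 reads are not wholly its own: the annotated transcripts of Trbc1 and Trbc2 were identical at 87.1% of 691 aligned bases, with an identical run of 259 bases against reads of 150, so how fragments were split between them is uncertain.

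Lck, the Src-family kinase bound to the CD4 and CD8 coreceptors (ENSMUSG00000000409, chromosome 4, 129548344 to 129573641), followed the same pattern. Its FPKM was 12, 2.72, 4.14 and 0.681 with vehicle and 0.0956, 1.11, 0.189 and 0.280 with DT-061. Again only DT-061 library 2 exceeded the lowest vehicle value. The change was -1.72 ± 0.57 (SE, n = 4 per group; limma adjusted p = 0.024). Both calls ended when DT-061 library 1 or 3 or vehicle library 3 was left out, where limma's adjusted p was 0.053 to 0.061 for Trbc2 and 0.054 for Lck, and with quantile normalization, at 0.09 and 0.12.

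**Figure D1:**
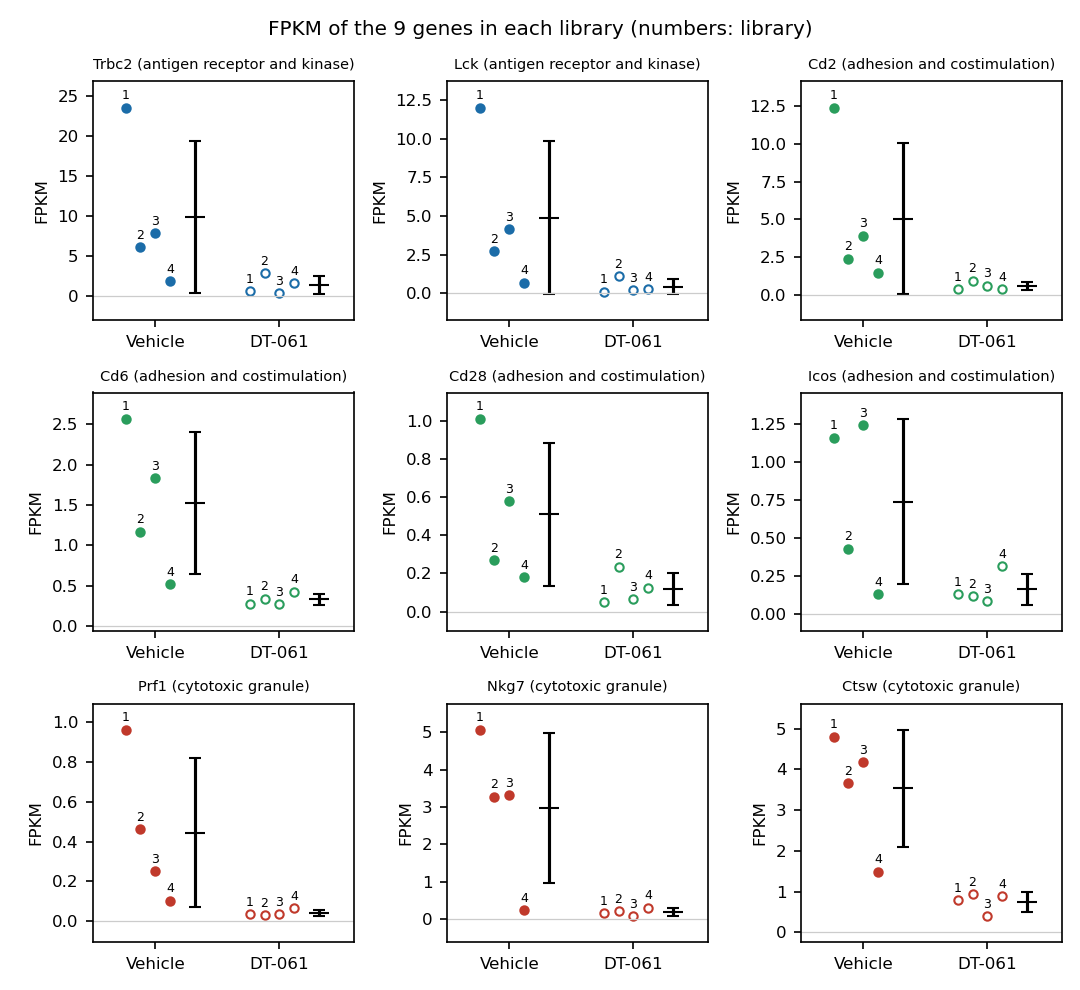
FPKM (vertical axes, linear) of each gene in the 4 vehicle libraries (filled points) and the 4 DT-061 libraries (open points), numbered by library, with the group mean and SD as a bar beside them. Vehicle library 1 is the highest in 8 of the 9 panels and vehicle library 4 the lowest vehicle value in all 9.

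Of the surface receptors, Cd2 and Cd6 were separated between the groups, while Cd28 and Icos were low and overlapped. Cd2, an adhesion receptor that binds CD48 in mice (ENSMUSG00000027863, chromosome 3, 101275899 to 101287939), had 12.4, 2.38, 3.92 and 1.47 FPKM with vehicle and 0.362, 0.943, 0.598 and 0.354 with DT-061. Every vehicle library was above every DT-061 library, and vehicle library 1 was 3.17 times the next. Cd6, a scavenger-family receptor that binds ALCAM (ENSMUSG00000024670, chromosome 19, 10789341 to 10830058), had 2.57, 1.17, 1.83 and 0.514 against 0.276, 0.338, 0.273 and 0.426 FPKM. Its DT-061 libraries were the most alike of the 9 genes, with an SD of 21.9% of the mean. The change of Cd6 was -0.86 ± 0.25 (SE, n = 4 per group; limma adjusted p = 0.019), and with quantile normalization it was 0.02.

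Cd28, the main costimulatory receptor for CD80 and CD86 (ENSMUSG00000026012, chromosome 1, 60716800 to 60773359), had 1.01, 0.269, 0.579 and 0.179 FPKM with vehicle and 0.0481, 0.235, 0.0634 and 0.125 with DT-061. Icos, its inducible relative on activated T cells (ENSMUSG00000026009, chromosome 1, 60977927 to 61000320), had 1.16, 0.431, 1.24 and 0.131 FPKM against 0.129, 0.118, 0.0850 and 0.314. Vehicle library 4 was inside the DT-061 range for both genes, and for Icos it was 0.811 times the DT-061 mean. The 2 genes lie 205 kb apart on chromosome 1 with only Ctla4 as an annotated protein coding gene between them. Their changes were small on this scale, -0.40 ± 0.17 for Cd28 and -0.53 ± 0.22 for Icos (SE, n = 4 per group; limma adjusted p = 0.045 and 0.047). The call of Cd28 ended when any 1 of the 4 DT-061 libraries, vehicle library 1 or vehicle library 3 was left out (limma's adjusted p 0.054 to 0.098), and that of Icos on leaving out any library other than vehicle library 4 (0.055 to 0.12). Both lost it with limma run without the trend and robust options (0.053 and 0.052) and with the median rescaling, and with quantile normalization both changed sign, to 0.14 and 0.11.

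Of the cytotoxic genes, Prf1 and Nkg7 came down to 1 to 4 fragments per library with DT-061, and Ctsw to 7 to 18. Prf1 (ENSMUSG00000037202, chromosome 10, 61297833 to 61304680) had 0.963, 0.461, 0.251 and 0.103 FPKM with vehicle and 0.0339, 0.0311, 0.0335 and 0.0662 with DT-061. The groups did not overlap, and the DT-061 values were the lowest of all 9 genes in each of those 4 libraries. Nkg7, a granule membrane protein needed for degranulation (ENSMUSG00000004612, chromosome 7, 43437073 to 43438249), had 5.07, 3.28, 3.32 and 0.242 FPKM against 0.159, 0.219, 0.0785 and 0.310. Vehicle libraries 1 to 3 were close together and far above the rest, while vehicle library 4 lay under DT-061 library 4.

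Ctsw, cathepsin W, a cysteine protease of cytotoxic lymphocytes (ENSMUSG00000024910, chromosome 19, 5465043 to 5468507), had 4.81, 3.66, 4.18 and 1.49 FPKM with vehicle and 0.791, 0.935, 0.391 and 0.882 with DT-061. It showed the steadiest difference of the 9, without overlap, with a change of -1.32 ± 0.28 (SE, n = 4 per group; limma adjusted p = 0.016). Fibp overlaps Ctsw on the opposite strand, and no source used here says whether the counting used strand, so some Ctsw fragments may belong to Fibp. On the same strand, Mir8119 overlaps Lck and Gm37039 overlaps Icos, where counting by strand could not part them. The changes of Nkg7 and Prf1 were -1.53 ± 0.45 and -0.44 ± 0.16 (limma adjusted p = 0.019 and 0.032), the latter small because the scale compresses values under 1. The call of Prf1 ended when any 1 DT-061 library or vehicle library 2 was left out (limma's adjusted p 0.057 to 0.069), and its sign turned with quantile normalization, to 0.03.

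**Figure D2:**
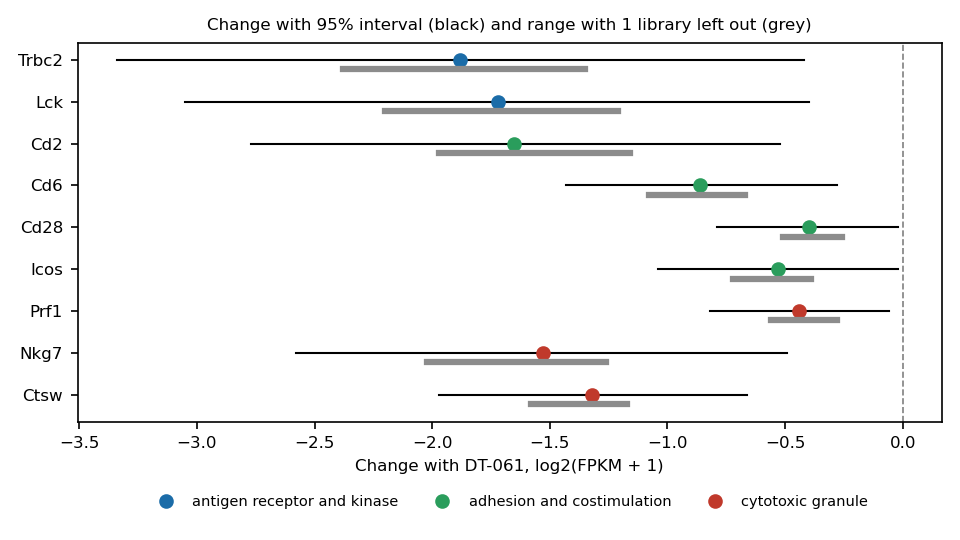
Change with DT-061 (horizontal axis, difference of mean log2(FPKM + 1)) for each gene, as a point coloured by role with its 95% limma interval in black and, in grey, the range of the change with each library left out in turn. All 9 intervals lie below 0, those of Cd28 and Icos ending at -0.02; with quantile normalization, not drawn, Cd6, Cd28, Icos and Prf1 were above 0.

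The fragments behind these values were worked back from the spacing of low FPKM values. The libraries held 14400000 to 15600000 fragments with DT-061 and 14100000 to 22200000 with vehicle, to 3 significant digits. With those depths, a length was fitted for each gene to bring its values under 60 fragments nearest to whole numbers. They then fell within 0.0068 of whole numbers, a closeness that the fit itself sought. The smallest whole numbers that fit are given here. Each fitted length was shorter than the gene's annotated exons, for Lck 2186 against 2929 bases. For 8 genes double these numbers would need a gene longer than its annotated exons, and for Cd6 a multiple is possible.

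Prf1 rested on 1, 1, 1 and 2 fragments in DT-061 libraries 1 to 4 and on 32, 21, 9 and 3 with vehicle, so 5 against 65 in all (95% exact Poisson intervals 1.62 to 11.7 and 50.2 to 82.8). Nkg7 rested on 2, 3, 1 and 4 fragments with DT-061 and on 72, 64, 51 and 3 with vehicle. These are the thinnest values of the set, and a DT-061 library with 1 fragment cannot be ranked against another. Lck had 3, 38, 6 and 9 fragments with DT-061 and 424, 132, 158 and 21 with vehicle, and Trbc2 had 5, 24, 3 and 13 against 199, 71, 72 and 14. The group sums of the others ranged from 31 for Cd28 and Icos to 59 for Cd6 with DT-061, and from 152 for Cd28 to 396 for Cd2 with vehicle. Such intervals cover counting error only, and reads copied by PCR are not independent molecules.

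Levels can be compared only roughly between genes. FPKM is scaled by length, but fragments of some genes, Trbc2 and Ctsw among them, may in part belong to others. In vehicle aortas the order of mean FPKM was Trbc2 (9.89), Cd2 (5.05), Lck (4.88), Ctsw (3.54), Nkg7 (2.98), Cd6 (1.52), Icos (0.740), Cd28 (0.509) and Prf1 (0.444). None of the 8 neighbouring pairs in that order differed by more than the larger of their SDs. Trbc2 was nonetheless the highest of the 9 in 4 of 4 vehicle libraries, and in 2 of 4 DT-061 libraries. With DT-061 the order was Trbc2 (1.43), Ctsw (0.750), Cd2 (0.564), Lck (0.419), Cd6 (0.328), Nkg7 (0.191), Icos (0.162), Cd28 (0.118) and Prf1 (0.0412), and 7 of the 8 neighbouring pairs lay within the larger SD.

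The vehicle libraries differed widely among themselves, and in the same order for most of the genes. Vehicle library 1 was highest in 8 of the 9 genes, and vehicle library 3 was highest for Icos. Vehicle library 4 was the lowest vehicle library in all 9, at 0.811 to 2.61 times the DT-061 mean, whereas vehicle libraries 1 to 3 were above every DT-061 value in all 9 genes. Averaged over vehicle libraries 1 to 3, the genes were 5.25 to 20.3 times the DT-061 mean. Among the DT-061 libraries, library 3 was the lowest in 5 of the 9 genes, and library 2 was the highest in 5.

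**Figure D3:**
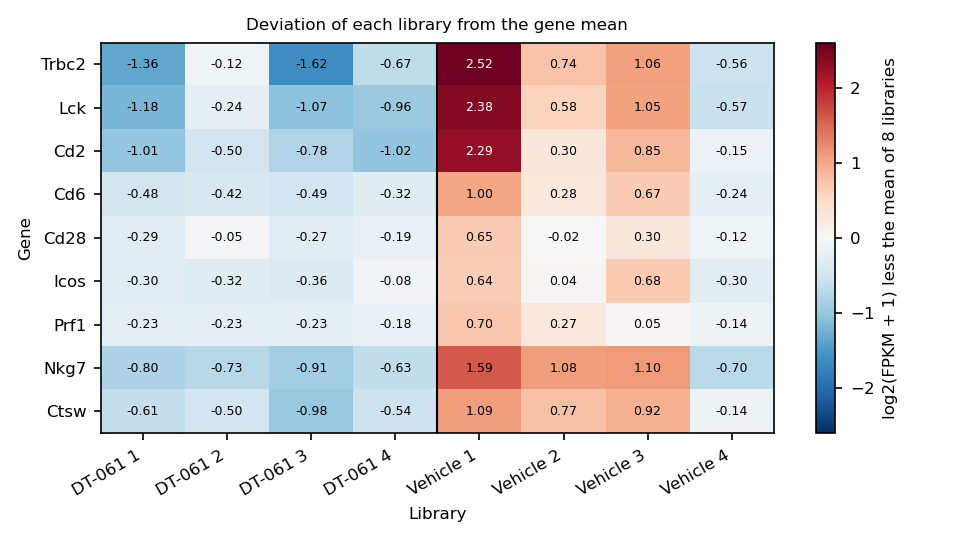
Log2(FPKM + 1) of each gene (rows) in each library (columns) less its mean over the 8 libraries, as colour and number. Vehicle library 1 reaches 2.52 for Trbc2, while vehicle library 4 is below 0 for all 9 genes.

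The excess of vehicle library 1 differed between the genes and with the library it was set against. Relative to vehicle library 2, its FPKM was 5.22 times for Cd2, 4.41 times for Lck and 3.84 times for Trbc2, but 2.09, 1.54 and 1.32 times for Prf1, Nkg7 and Ctsw. Cd6 at 2.19 times and Icos at 2.70 times lay between, and Cd28 was at 3.74 times. Relative to vehicle library 3 the roles were mixed: Prf1 was at 3.84 times, where library 3 had 9 fragments, Nkg7 at 1.52 and Ctsw at 1.15, while Cd6 was at 1.4 and Icos at 0.941. Between vehicle libraries 2 and 4, Nkg7 differed most, 13.6-fold, against 1.5-fold for Cd28 and 1.62-fold for Cd2. These are differences between single libraries and were not tested.

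**Figure D4:**
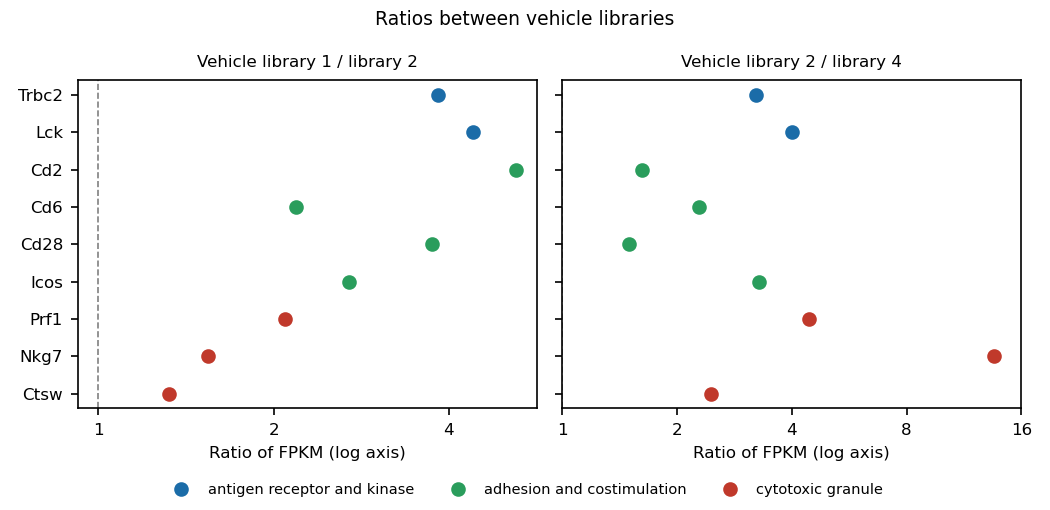
Ratio of FPKM (horizontal log axes) of vehicle library 1 to library 2 (left) and of vehicle library 2 to library 4 (right), with 1 point per gene coloured by role. On the left the 3 cytotoxic genes lie at 1.32 to 2.09 and the other 6 at 2.19 to 5.22; on the right Nkg7 stands apart at 13.6.

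Set against Trbc2 in the same library, the cytotoxic genes showed no separation between the groups. The ratio of Nkg7 to Trbc2 FPKM was 0.215, 0.535, 0.420 and 0.127 with vehicle and 0.237, 0.0742, 0.198 and 0.183 with DT-061. The ratio of Ctsw to Trbc2 was 0.204, 0.596, 0.529 and 0.785 against 1.18, 0.317, 0.987 and 0.520. Lck to Trbc2 was the steadiest ratio in the vehicle aortas, 0.508, 0.443, 0.523 and 0.358, and spread from 0.143 to 0.477 with DT-061. The groups overlapped in all 3 ratios, and the few fragments of the DT-061 libraries leave them loosely fixed.

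The rest of the pathway was read from lists of T cell and cytotoxic genes, of which only those in the table could be followed. For the T cell receptor complex and proximal signalling, 27 of 54 listed genes were in the table. By limma 26 fell and none rose, though Fyn turned to higher with the median rescaling and 4 genes, Sh2d2a, Sla2 and Ubash3a among them, with quantile normalization. The median change was -1.20, and 9 of the 27 showed no overlap. Of all genes in the table, 48.2% were lower without overlap, a larger share than in this list. Of the 894 genes with a lower mean, 641 were. The calls stand beside the 65.0% of the table's genes that were called lower, and 864 of those 894. The CD3 chain genes Cd3d and Cd3g changed by -1.24 ± 0.36 and -1.40 ± 0.47 (SE, n = 4 per group; limma adjusted p = 0.018 and 0.024). Cd3e, the third CD3 chain, had 2.81 ± 2.20 FPKM with vehicle and 0.639 ± 0.262 with DT-061 (SD, n = 4) and did not pass (limma adjusted p = 0.053). The coreceptor genes Cd4 and Cd8b1 changed by -1.20 and -1.23, the kinase gene Zap70 by -0.95 and the adaptor gene Lat by -1.29, all past the threshold. Cd5, which lies 50.3 kb from Cd6, fell by 0.99. Zap70, Cd3d and Fyn kept their calls with each library left out. Those of Cd3g and Cd4 ended on leaving out vehicle library 3 or DT-061 library 1 or 3, that of Cd5 also without DT-061 library 2, that of Cd8b1 without DT-061 library 1, 3 or 4, and that of Lat without DT-061 library 1 or vehicle library 3 (limma's adjusted p 0.05 to 0.061 in all). Without DT-061 library 1, DT-061 library 3 or vehicle library 3, the list's count of 26 dropped to 10, 9 and 8. Fyn, a kinase of many cell types beside T cells, had 13.4 ± 1.54 FPKM with vehicle and 9.45 ± 1.08 with DT-061 (SD, n = 4), a 1.42-fold difference.

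Among T cell adhesion, costimulatory and inhibitory receptors, 16 of 35 listed genes were in the table. By limma 14 fell, none rose and 2 did not pass, with a median change of -1.06. Slamf6, which did not pass (limma adjusted p = 0.061), turned to higher with quantile normalization, as did Cd6, Cd28 and Icos. No overlap was seen in 6 of the 16, again a smaller share than the 48.2% of the table's genes that were lower without overlap. The calls stand beside the table's 65.0%. Of the 894 genes with a lower mean, 641 showed no overlap and 864 were called. The inhibitory receptor genes Havcr2, Btla and Tigit changed by -1.16, -0.96 and -0.84, and the early activation marker Cd69 by -0.84. The call of Havcr2 held with each library left out. That of Btla ended on leaving out vehicle library 3 or DT-061 library 1, 3 or 4, that of Tigit without DT-061 library 1 or vehicle library 3, and that of Cd69 without any 1 DT-061 library or vehicle library 2 or 3 (limma's adjusted p 0.053 to 0.066 in all). The count of 14 dropped to 5, 6 and 5 without DT-061 library 1, DT-061 library 3 or vehicle library 3.

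In the cytotoxic granule and NK cell list, 13 of 43 genes were in the table. By limma 12 fell, none rose and Eomes did not pass, with a median change of -1.11. Prf1, Eomes and Stx11 turned to higher under quantile normalization. No overlap was seen in 7 of the 13, beside 48.2% of the table's genes that were lower without overlap. The calls stand beside the table's 65.0%. Of the 894 genes with a lower mean, 641 showed no overlap and 864 were called. Ccl5, a chemokine made by effector T and NK cells among others, fell by 2.62, and Srgn, the proteoglycan that packs granule proteins, by 1.25. The NK receptor genes Klrk1, Klrc1 and Klrd1 changed by -0.86, -0.50 and -1.15. Klrc1 was listed at 0 in DT-061 libraries 2 and 3, and Klrk1 was at 0 in DT-061 library 3. Klrd1 lost its call when any library other than vehicle library 4 was left out (limma's adjusted p 0.063 to 0.089), and in that library it was 0.0771 FPKM, under all 4 DT-061 values. Eomes, a T-box factor of cytotoxic cells, had 0.302 ± 0.297 FPKM with vehicle and 0.0241 ± 0.0288 with DT-061 (SD, n = 4; limma adjusted p = 0.057). Srgn and Hcst are also expressed by myeloid cells.

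**Figure D5:**
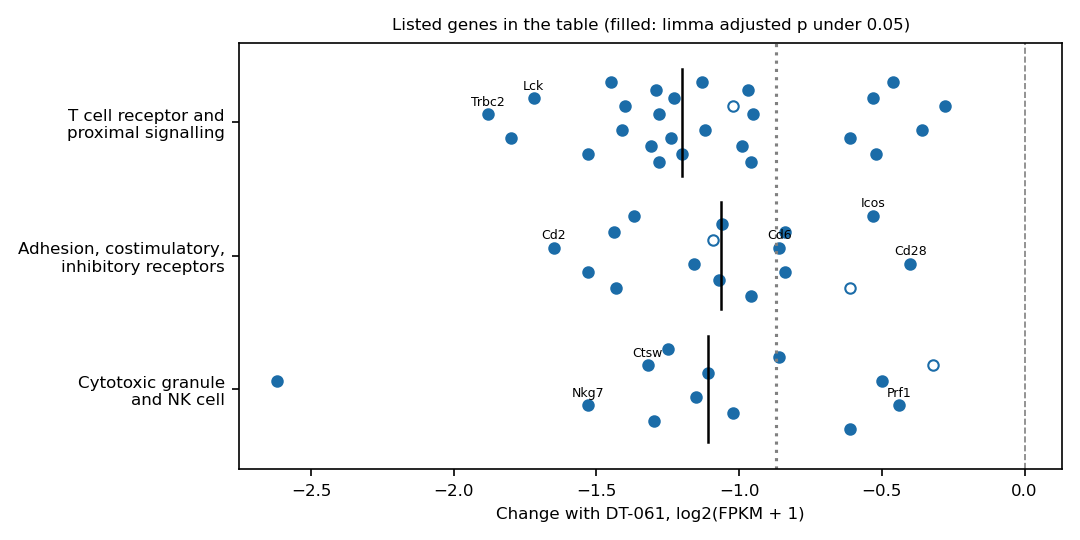
Change with DT-061 (horizontal axis, difference of mean log2(FPKM + 1)) of each listed gene in the table, in 3 rows by list, filled where limma's adjusted p was under 0.05 and open where not, with each list's median as a black line. The medians of -1.20, -1.06 and -1.11 stand beside -0.87 (dotted) for all genes with a lower mean.

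Of 6 listed ligands of the member receptors, 3 were in the table, and these moved both ways. Alcam, the ligand of CD6, had 11.7, 9.13, 13.8 and 11.9 FPKM with vehicle and 16.9, 17.1, 19.2 and 15.8 with DT-061. It rose by 0.54 ± 0.13 on the log2 scale without overlap (SE, n = 4 per group; limma adjusted p = 0.016). It stayed higher with both scalings, but these shift changes upward, so this adds no support. Cd80, a ligand of CD28 on antigen-presenting cells, fell by 1.12 ± 0.26 on the log2 scale, from 3.30 ± 0.456 FPKM with vehicle to 1.05 ± 0.638 with DT-061 (SD, n = 4; limma adjusted p = 0.016, and 0.058 with the median rescaling). Unlike the 9 receptors and cytotoxic genes, Cd80 was not low in vehicle library 4, at 3.33 FPKM. Icosl, the ligand of ICOS, had 10.7 ± 2.38 against 7.09 ± 0.964 FPKM and fell by 0.52, but turned to higher with the median rescaling. Of T cell subset genes, 6 of 28 were in the table: Ccr7, Cxcr3, Cxcr4, Cxcr6 and Cd52 fell by 1.28, 1.22, 1.71, 0.97 and 2.02 on the log2 scale, and Ikzf3 did not pass (limma adjusted p = 0.067). The calls of Ccr7 (without DT-061 library 3 or vehicle library 3), Cd52 (without DT-061 library 3 or vehicle library 1, 2 or 3) and Cxcr6 (without any library other than vehicle library 4) ended at limma adjusted p of 0.05 to 0.11. Ccr7 is also on the list of dendritic cell markers. The 1 gene in the table from a list of 15 thymocyte genes was Cd8b1, which mature CD8 T cells also express.

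The 6 genes whose profile over the 8 libraries was nearest to the mean profile of the 9 were Cd3d, Thbs4, Traf1, Ms4a4b, Lpxn and Pik3cd, of which Cd3d and Pik3cd are also on the T cell receptor list. Nearness was the root mean square difference of log2(FPKM + 1) after each gene's own mean was taken off. It was 0.08 for Cd3d and 0.10 to 0.11 for the other 5, against 0.22 (Cd6 and Ctsw) to 0.58 (Trbc2) for the 9 genes themselves. The 6 were picked for the smallest differences, so nothing is read from their lying nearer than the 9. The part played in nearness by the group difference and by the spread among vehicle libraries was not separated. Thbs4, which encodes the matrix glycoprotein thrombospondin 4, had 4.48, 1.72, 2.77 and 0.886 FPKM with vehicle and 0.457, 0.580, 0.215 and 0.531 with DT-061. Its vehicle libraries stood in the order 1, 3, 2 and 4, as in 7 of the 9 genes. Nearness over these same libraries is how Thbs4 was chosen, so the shared order adds no support. The limit of a vehicle mean FPKM of at least 1 was also set on the higher group.

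Of other cell types' markers in the table, limma called those of immune cells and adipocytes lower and those of smooth muscle higher. The table's genes were chosen as significant between these groups, with 65.0% called lower, so nothing is read from these calls. The labels give the cells as vascular, and 6 of 10 smooth muscle markers were in the table, at 15310 to 22968 FPKM in sum with DT-061 and 8382 to 13257 with vehicle. Vehicle library 1, the highest for most of the 9 genes, was the lowest of the 8 for these smooth muscle markers. Of 22 B and plasma cell markers, 6 were in the table, and their sum was 73.8 to 142 FPKM with DT-061 and 5639, 1284, 2292 and 244 in vehicle libraries 1 to 4. The sums of 4 of 23 monocyte and macrophage markers were 3.29 to 19.8 against 20.8 to 123 FPKM, those of 6 of 11 dendritic cell markers 3.32 to 11.4 against 13.1 to 42.3, and those of 3 of 17 neutrophil and mast cell markers 0.569 to 2.46 against 1.46 to 24.8. S100a9 was listed at 0 in DT-061 library 3 and vehicle library 4, and Xcr1 in DT-061 library 3. The sum of 2 of 8 adipocyte markers was 74.1 to 335 with DT-061 and 498 to 1417 with vehicle, and of the 2 of 10 fibroblast markers present, 1 was called lower (turning to higher with the median rescaling) and 1 higher, so that their sum, 810 to 1054 against 629 to 838, follows the more abundant one. No endothelial marker was in the table. In vehicle library 4 all the immune sums were the lowest of the vehicle group, and the part of these other cell types in the results was not tested.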

How the data were processed

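Poly-A RNA of ascending aortas was sequenced as 150-base read pairs, per the labels' protocols, in 4 DT-061 and 4 vehicle libraries grouped by their titles. The submitters' processing notes name the build mm10 and, without their roles, the programs featureCounts 1.5.0-p3, HISAT2 2.0.5 and StringTie 1.3.3b. The values are FPKM made by the authors and deposited for 1329 genes, with the choice's tool and threshold not given in the sources used here. Symbols were found for 1328 genes, and coordinates come from GENCODE M21 (GRCm38, the same assembly as mm10).

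The test was limma 3.58.1 in R 4.3.3 with the trend and robust options on log2(FPKM + 1), fitting treatment alone and adjusting by Benjamini and Hochberg across the 1329 genes and a threshold of 0.05. It was also run on simulated data of independent normal noise. Those data lacked the table's selection, spread shared by genes of a library and whole-number counts, so that run does not cover them. The pseudocount of 1 shrinks the changes of low genes. Named genes are the 9 members, genes of the T cell and cytotoxic lists, and the 6 most alike genes with a vehicle mean FPKM of at least 1. The members and lists were chosen with earlier results of these data known. Some listed genes are counted but not reported here by name. Alternatives tried: plain limma, a pseudocount of 0.1, a filter on mean FPKM under 1, median rescaling, quantile normalization, an exact permutation test, a replicate block and each library left out. Leaving out DT-061 library 3 and vehicle library 4 together was added after the data were seen.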

Additional observations from a re-analysis of the deposited data

Results flagged for a closer look

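Prf1 in DT-061 library 4 stood apart from the other 3 DT-061 libraries, at 0.0662 FPKM against 0.0311 to 0.0339: its gap to the nearest was 0.921 of the group's range, above the 95% critical value of Dixon's test for 4 samples. It rests on 2 fragments against 1 in each of the others. It was the only value past that limit among 18 groups of 4 libraries (9 genes in 2 treatments), and chance flags about 1 in 20 groups.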

How the results depend on the processing

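All 9 genes kept a lower mean in each of the 72 fits with 1 library left out, and 24 of these fits lost the call, none of them for Cd2, Cd6, Nkg7 or Ctsw. The count of the 9 genes called lower ranged from 4 to 9 over those fits, that of the T cell receptor list from 8 to 27, of the adhesion and costimulatory list from 5 to 16 and of the cytotoxic list from 8 to 13. With DT-061 library 3 and vehicle library 4 both left out, all 9 genes were called, and since vehicle library 4 was the closest to the DT-061 libraries, this widens the difference by construction. A minimum mean FPKM of 1 kept 5 of the 9 genes, all 5 called, and left 8 calls in the adhesion list, since fewer genes were tested. The median rescaling shifted changes by a median of 0.69 and left 15 calls in the T cell receptor list and 9 in the adhesion list. Quantile normalization shifted them by 0.56 and left 0 of the 9 genes called by limma (3 at an unadjusted p under 0.05), with 2 calls in the T cell receptor list, 0 in the adhesion list (0 unadjusted) and 2 in the cytotoxic list. It turned Cd6, Cd28, Icos and Prf1 to 0.02, 0.14, 0.11 and 0.03 (limma adjusted p = 0.94, 0.26, 0.53 and 0.78). Both scalings were run on the table's chosen genes alone, of which limma called 864 lower and 404 higher. Setting libraries equal on such genes moves changes upward, so these scalings cannot decide whether the 9 genes fell. How much of the sign turns and lost calls came from this was not tested. By the exact two-sided permutation test, unadjusted, 4 of the 9 genes reached 0.0286, the smallest p that 4 against 4 libraries allow, and the other 5 had 0.057; it called 9, 6 and 7 genes of the 3 lists.

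With the replicate number as a block, 5 of the 9 genes, 11 of the T cell receptor list and 7 of the adhesion list were called. Deviations of same-numbered libraries correlated at -0.466 to 0.184 across genes, and 1 of the 4 DT-061 libraries correlated best with its own number. This cannot decide whether the numbers pair the libraries, since deviations were taken within each group of 4 and 1 match is what chance gives. Depth limits Prf1 and Nkg7 most.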
